A study of Mus musculus with 9 samples.

Results

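The formative and primed pluripotency genes examined here are 10 genes known to rise when mouse embryonic stem cells (ESCs) leave the naive state: Otx2, Pou3f1, Fgf5, Zic2, Zic5, Sox3, Sox4, Sall2, Foxd3 and Etv4. They were taken by gene identifier from a table of 35771 genes. All 10 were present, and all 10 were among the 13424 genes with enough reads to be tested. Naive ESCs resemble the epiblast before implantation. On the way to lineage commitment they pass through a formative state, in which OTX2 and POU3F1 (also called OCT6) take part in moving the shared factor OCT4 to other enhancers, and then reach the primed state of the epiblast after implantation, for which Fgf5 is a classical marker. FGF signalling through ERK promotes this exit, while LIF in the culture medium holds cells in the naive state.

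The cells were mouse ESCs of mixed background, homozygous for the iMOS T1-Myc allele and carrying RERT, a tamoxifen-dependent recombinase. All groups share this genotype, gelatin-coated plates and medium with LIF. Recombination makes a mosaic in which cells carry different numbers of extra Myc copies, each marked by the fluorescent protein EYFP. The first group was uninduced. The other groups came from cultures given 20 µM 4-hydroxytamoxifen for 24 h and sorted by EYFP 24 h after its removal, into cells with 2 extra Myc copies (2-copy cells) and cells without any (no-extra-copy cells). The 2-copy and no-extra-copy cells differ in Myc dose within mosaic cultures. Against uninduced cells, drug, recombination and mosaic culture cannot be told apart from Myc dose. The treatment text of the labels is the same for every sample, so the uninduced group rests on the titles. The design calls the 3 libraries of a group biological replicas, but the labels do not say whether they were separate cultures, and p-values measure the spread between these libraries.

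Library totals ran from 4165286 to 8872303 counts. Levels are given as CPM, read counts relative to the TMM-scaled library total, with ± for the SD of the 3 libraries of a group. Calls rest on the quasi-likelihood test of edgeR with Benjamini-Hochberg adjustment over all 13424 genes, and the threshold is an adjusted p of 0.05. Myc stood at 13.3 ± 1.51 CPM in uninduced, 31.6 ± 0.913 CPM in no-extra-copy and 142 ± 4.36 CPM in 2-copy cells, in the order the labels give for the induced groups. In edgeR Myc was also 2.36-fold higher in no-extra-copy than in uninduced cells (adjusted p = 1.10e-11), although the labels give no-extra-copy cells no extra copy. The cause was not tested. Pou5f1, Sox2 and Nanog, which define ESCs, were at 1070 CPM or more, 314 CPM or more and 194 CPM or more in every group mean. Replicate 1 of the 2-copy cells stood apart, with a chi-square per degree of freedom of 2.67 and 3.02 against its replicates and 1.35 to 1.80 for the other pairs of replicates. A library's deviations from the mean of all libraries were also compared with the exonic length of the genes. The correlation was 0.06 to 0.16 in uninduced, -0.03 to 0.04 in no-extra-copy and -0.16 to 0.02 in 2-copy libraries. In bulk RNA, fewer cells of a type and less RNA per cell cannot be told apart.

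The 10 genes did not move as a block. Otx2 and Zic5 were lower in both induced populations than in uninduced cells. Pou3f1 and Sall2 were lower in 2-copy cells than in either other group. Zic2 fell in steps from uninduced through no-extra-copy to 2-copy cells, Foxd3 was highest in no-extra-copy and lowest in 2-copy cells, and Etv4 was higher in both induced populations. Sox4 was higher in no-extra-copy than in uninduced cells, and Fgf5 and Sox3 passed no test. The summed level of the 10 genes ran from 441 to 449 CPM in uninduced, 414 to 429 CPM in no-extra-copy and 368 to 375 CPM in 2-copy libraries, with no overlap between groups.

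**Figure D1:**
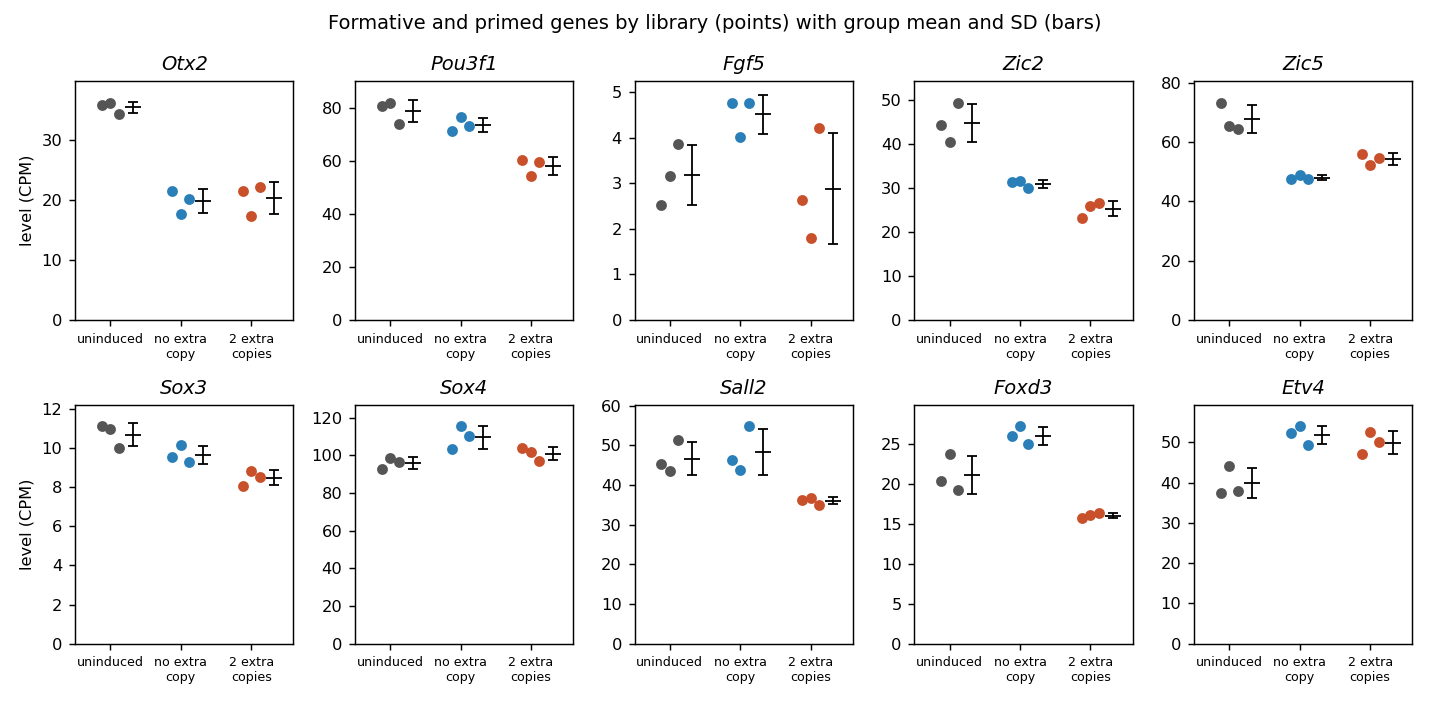
Level of each of the 10 genes in CPM (vertical axes, from 0) in every library, by group; points are libraries, and the bar beside them is the group mean with its SD (3 libraries). Otx2 sat at 34.5 to 36.3 CPM in uninduced libraries and at 22.2 CPM or below in all induced ones, while Foxd3 separated all 3 groups.

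Between 2-copy and no-extra-copy cells, 4 of the 10 genes were lower (Pou3f1, Zic2, Sall2 and Foxd3) and 0 higher. Of all tested genes, 7.7% were called lower and 8.3% higher in this comparison. At an unadjusted p under 0.05 in edgeR, 6 members were lower and 1 higher, and DESeq2 and limma-voom likewise called 0 higher. The libraries of the groups did not overlap for 6 members, against 30.6% of all tested genes. The median log2 difference of the members was -0.25, against -0.01 over all tested genes.

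Against uninduced cells, 2-copy cells had 6 members lower (Otx2, Pou3f1, Zic2, Zic5, Sall2 and Foxd3) and 1 higher (Etv4), with 12.1% of all tested genes lower and 12.8% higher. The median of the members was -0.35 (log2), against -0.01 over all tested genes, and 8 members did not overlap, against 38.5%. No-extra-copy cells had 3 lower than uninduced (Otx2, Zic2 and Zic5) and 3 higher (Sox4, Foxd3 and Etv4), against 6.39% and 7.1% of all tested genes. The 3 higher became 1 (Etv4) with DESeq2, without uninduced replicate 1 or without no-extra-copy replicate 2. In this comparison 7 members did not overlap, against 31.5%, and the median was -0.03 for the members and 0.0022 over all tested genes. The comparisons share groups, so their calls are not independent of each other.

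**Figure D2:**
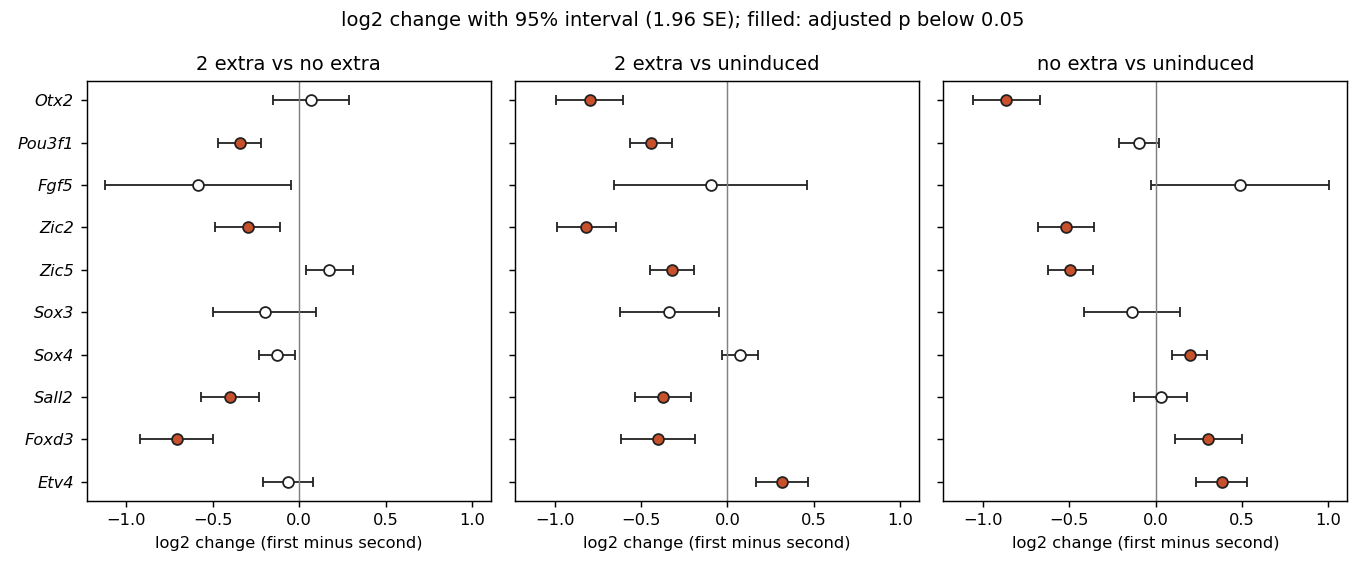
log2 difference of each gene (first group minus second, horizontal axes) in the 3 comparisons, with the 95% interval as a bar; filled points have an adjusted p below 0.05. Otx2 lies left of 0 in both comparisons with uninduced cells and at 0.07 between the induced populations, while Foxd3 lies at -0.71 between the induced populations.

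Promoter sequence is shown for 4 of the members that were called, Foxd3 and Sall2 because they were lower in 2-copy than in no-extra-copy cells, and Otx2 and Zic5 because they were lower in both induced populations than in uninduced cells. RefSeq windows (GRCm38.p6) matched 6 of the 10 genes, Fgf5, Foxd3, Otx2, Sall2, Sox4 and Zic5; Pou3f1, Zic2, Sox3 and Etv4 had no entry. Each line gives the bases before a RefSeq transcription start that lie in no annotated exon, 5′ to 3′, and capitals mark the E-box CACGTG, the motif that MYC binds with MAX.
Foxd3, chr4:99656049-99656298, plus strand: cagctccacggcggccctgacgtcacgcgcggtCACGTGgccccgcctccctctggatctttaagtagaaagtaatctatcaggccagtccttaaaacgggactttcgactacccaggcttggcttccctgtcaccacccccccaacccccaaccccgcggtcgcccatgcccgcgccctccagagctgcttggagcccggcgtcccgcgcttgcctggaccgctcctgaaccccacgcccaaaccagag
Sall2, chr14:52316324-52316573, minus strand: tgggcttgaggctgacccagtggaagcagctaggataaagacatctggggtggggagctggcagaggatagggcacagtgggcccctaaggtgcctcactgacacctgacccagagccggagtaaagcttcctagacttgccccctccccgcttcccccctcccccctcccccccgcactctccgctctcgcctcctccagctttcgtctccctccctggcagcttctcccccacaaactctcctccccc
Otx2, chr14:48667645-48667894, minus strand: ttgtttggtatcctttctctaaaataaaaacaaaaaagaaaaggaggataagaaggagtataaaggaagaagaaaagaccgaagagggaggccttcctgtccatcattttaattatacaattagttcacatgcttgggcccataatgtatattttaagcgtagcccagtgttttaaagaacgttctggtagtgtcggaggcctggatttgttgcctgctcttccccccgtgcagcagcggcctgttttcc
Zic5, chr14:122465678-122465908, minus strand: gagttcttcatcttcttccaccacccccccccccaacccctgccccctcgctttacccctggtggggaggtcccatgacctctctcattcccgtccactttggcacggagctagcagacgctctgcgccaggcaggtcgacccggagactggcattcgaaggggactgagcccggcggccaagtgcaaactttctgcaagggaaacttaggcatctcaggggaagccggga
In the 300-base windows that include the first bases of the transcript, CACGTG occurred in 1 of the 6 members with a window, Foxd3, and in 8.1% of 27025 genes. In Foxd3 it begins at position -217 from the start. The octamer ATGCAAAT, the TCF/LEF motif CTTTGAT and the ETS motif CCGGAAGT occurred in 0 of the 6 members, and in 2.0%, 4.3% and 4.3% of all genes. TATAAA occurred in 3 members (Fgf5, Otx2 and Sall2) and 15.7% of genes, and CCAAT in 3 (Otx2, Sall2 and Sox4) and 41.1%. Both strands were searched, and in the bases printed for Foxd3 the E-box was the only match to these 6 motifs. Otx2 and Sall2 have several RefSeq starts, and the printed Sall2 bases hold none of these motifs: its TATAAA lies before another start, where the bases outside exons are 25.3% G and C with 0 CpG. In the printed bases the share of G and C was 42.0% with 6 CpG in Otx2, 65.6% with 21 in Foxd3, 64.4% with 6 in Sall2 and 62.3% with 11 in Zic5. These are matches of letters and say nothing on binding in these cells.

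Per length, the members span a wide range of abundance. On a scale of counts per kilobase of exon, scaled to the same sum in each library (TPM-like), the mean level over all 9 libraries was 69.5 for Sox4, 59.6 for Pou3f1 and 49.5 for Etv4. Zic2 and Zic5 were close to each other at 38.2 and 37.8, followed by Foxd3 at 29.7 and Sall2 at 26.2. Otx2 at 19.5 and Sox3 at 15.2 were lower, and Fgf5 was lowest at 4.60. On the same scale Pou5f1 had a mean of 1628 and Sox2 of 542.

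Fgf5 encodes the secreted FGF ligand of the primed epiblast. It was read from only 206 counts in all, 10 to 36 a library. Its levels were 2.53, 3.15 and 3.85 CPM in uninduced, 4.76, 4.02 and 4.76 CPM in no-extra-copy and 2.63, 1.81 and 4.20 CPM in 2-copy libraries. The no-extra-copy libraries lay above the uninduced ones, and the 2-copy libraries spread across both groups. No comparison passed: no-extra-copy against uninduced cells gave a log2 difference of 0.49 (95% interval -0.03 to 1.00, adjusted p = 0.244), and 2-copy against no-extra-copy cells -0.58 (-1.12 to -0.05, adjusted p = 0.153). Without replicate 3 of the 2-copy cells the latter was -0.98 with an adjusted p of 0.0405 (range over all 20 alternatives 0.0405 to 0.478). In 2-copy against uninduced cells the interval of Fgf5 was -0.65 to 0.46 (log2). At this depth the intervals of Fgf5 were wide, but the falls of Otx2 against uninduced cells (log2 -0.86 and -0.80) lay outside those of the same comparisons.

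Fgf4, the FGF ligand made by naive ESCs themselves, was 74.3 ± 3.15 CPM in uninduced, 101 ± 5.85 CPM in no-extra-copy and 86.7 ± 3.12 CPM in 2-copy cells. It was called in each comparison, 1.34-fold higher in no-extra-copy than in uninduced cells (adjusted p = 9.19e-07) and 1.16-fold lower in 2-copy than in no-extra-copy cells (adjusted p = 0.00862). Fgf8 was scarce, with 140 counts in all, at 1.496 CPM in uninduced, 3.11 CPM in no-extra-copy and 2.87 CPM in 2-copy cells. In edgeR it was higher in both induced populations (adjusted p = 0.031 and 0.0284). Of the 12 testable close relatives of the members, Fgf4 and Fgf8 among them, DESeq2 called 1 higher in each comparison with uninduced cells.

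Etv4 encodes an ETS transcription factor whose gene is a known target of FGF and ERK signalling. It was at 37.5, 44.2 and 37.9 CPM in uninduced, 52.2, 53.9 and 49.3 CPM in no-extra-copy and 47.0, 52.6 and 50.1 CPM in 2-copy libraries. Every induced library was above every uninduced one, and the induced populations overlapped. The rise over uninduced cells was 1.30-fold with no extra copy (log2 0.38, SE 0.0751, adjusted p = 0.000452) and 1.25-fold with 2 extra copies (log2 0.32, SE 0.076, adjusted p = 0.00204). The induced populations differed by -0.07 (log2, 95% interval -0.21 to 0.08). Its relatives were not alike: Etv5 stood at 417 ± 9.36, 413 ± 2.79 and 409 ± 19.9 CPM in uninduced, no-extra-copy and 2-copy cells and passed no test, and Etv1 was 1.27-fold higher in no-extra-copy than in uninduced cells (adjusted p = 0.0332).

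The feedback genes that report on FGF and ERK signalling showed few calls. Of 10 listed, 1 was lower and 0 higher in 2-copy than in no-extra-copy cells (Dusp6, the ERK phosphatase, 1.29-fold, adjusted p = 9.31e-05). At an unadjusted p under 0.05 in edgeR 3 were lower and 0 higher, and DESeq2 and limma-voom also called 0 higher. Against uninduced cells 2-copy cells had 2 lower (Ier3 2.31-fold and Dusp6 1.22-fold), and no-extra-copy cells had 1 higher (Dusp4, 1.25-fold) and 1 lower (Ier3, 1.81-fold). DESeq2 and the length and GC correction each left 0 higher and 1 lower in the latter comparison. The shares called, 10%, 20% and 20%, stand beside 16%, 25% and 13.5% of all tested genes. The list's median log2 differences were -0.12, -0.07 and 0.01, beside rises of 1.25-fold and 1.30-fold for Etv4 in the comparisons with uninduced cells.

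Otx2, a homeodomain factor that drives entry into the formative state, differed most among the members between uninduced and no-extra-copy cells. It was at 35.8, 36.3 and 34.5 CPM in uninduced, 21.6, 17.6 and 20.2 CPM in no-extra-copy and 21.6, 17.3 and 22.2 CPM in 2-copy libraries. The uninduced libraries were all above all induced ones, and the induced groups lay over each other. The fall against uninduced cells was 1.82-fold with no extra copy (log2 -0.86, SE 0.0989, adjusted p = 6.88e-08) and 1.74-fold with 2 extra copies (log2 -0.80, SE 0.0984, adjusted p = 2.09e-07), and both calls held in all 20 alternatives. The induced populations differed by 0.07 (log2, 95% interval -0.15 to 0.29, adjusted p = 0.749). Its relatives Otx1 and Crx had too few reads to be tested.

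Pou3f1 encodes OCT6, a POU factor of the formative and primed states. It was at 80.7, 82.0 and 74.0 CPM in uninduced, 71.2, 76.6 and 73.1 CPM in no-extra-copy and 60.5, 54.2 and 59.7 CPM in 2-copy libraries. All 2-copy libraries were below all others, while the other groups overlapped. Pou3f1 was 1.27-fold lower in 2-copy than in no-extra-copy cells (log2 -0.35, SE 0.0644, adjusted p = 0.000233) and 1.36-fold lower than in uninduced cells (log2 -0.44, SE 0.0623, adjusted p = 2.10e-06). Between no-extra-copy and uninduced cells the log2 difference was -0.10 (95% interval -0.21 to 0.02, adjusted p = 0.321). With a correction for exonic length and GC content it was -0.20 with an adjusted p of 0.0234 (range over the alternatives 0.0234 to 0.64). The other class III POU genes, Pou3f2, Pou3f3 and Pou3f4, had too few reads to be tested.

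Zic2 and Zic5 encode zinc-finger factors and are neighbours on chromosome 14, transcribed away from each other from starts 9758 bases apart (GRCm38, Zic2 from 122475435 to 122479852 and Zic5 from 122456795 to 122465677). Zic2 was at 44.4, 40.6 and 49.4 CPM in uninduced, 31.4, 31.6 and 30.01 CPM in no-extra-copy and 23.3, 26.0 and 26.5 CPM in 2-copy libraries, 3 levels with no overlap. The fall against uninduced cells was 1.43-fold with no extra copy (log2 -0.52, SE 0.0836, adjusted p = 3.10e-05) and 1.76-fold with 2 extra copies (log2 -0.82, SE 0.0874, adjusted p = 1.32e-08). The last step, 1.23-fold from no-extra-copy to 2-copy cells (log2 -0.30, SE 0.095, adjusted p = 0.028), was lost with DESeq2 (adjusted p = 0.174, range over the alternatives 0.0135 to 0.174). It was also lost without replicate 1 of the 2-copy cells (0.122), without their replicate 2 (0.0534), and without replicate 1 (0.0753) or 2 (0.114) of the no-extra-copy cells.

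Zic5 followed another order. It was at 73.2, 65.5 and 64.5 CPM in uninduced, 47.6, 48.9 and 47.4 CPM in no-extra-copy and 56.1, 52.2 and 54.6 CPM in 2-copy libraries, so that the no-extra-copy cells were lowest. It was 1.41-fold lower in no-extra-copy (log2 -0.49, SE 0.0663, adjusted p = 1.37e-06) and 1.25-fold lower in 2-copy than in uninduced cells (log2 -0.32, SE 0.0652, adjusted p = 0.000389). The 2-copy libraries were all above the no-extra-copy ones, but the difference of 0.18 (log2, 95% interval 0.04 to 0.31) had an adjusted p of 0.0874. A near-identical sequence, Gm12241, covers 62.8% of a Zic5 transcript, so reads may be shared. Zic1 and Zic4 had too few reads to be tested.

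Sox3 encodes a SOXB1 factor close to SOX2 and active in the epiblast and neural progenitors. Its 571 counts gave 11.1, 10.96 and 10.01 CPM in uninduced, 9.52, 10.2 and 9.29 CPM in no-extra-copy and 8.06, 8.85 and 8.55 CPM in 2-copy libraries. The 2-copy libraries were below all others, yet no comparison passed. Against uninduced cells the log2 difference of the 2-copy cells was -0.34 (95% interval -0.62 to -0.05, adjusted p = 0.0908), and with the length and GC correction -0.39 with an adjusted p of 0.0453 (range over the alternatives 0.0453 to 0.351). Sox2 itself, at about 372, 341 and 314 CPM in uninduced, no-extra-copy and 2-copy cells, fell at each step (adjusted p = 0.0253 and 0.0327). Sox1, the neural relative, was 1.28-fold higher in no-extra-copy than in uninduced cells (adjusted p = 0.00821) and 1.36-fold lower in 2-copy than in no-extra-copy cells (adjusted p = 0.00178).

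Sox4 encodes a SOXC factor with broad roles in progenitor cells. It was at 92.5, 98.7 and 96.7 CPM in uninduced, 103, 115 and 110.5 CPM in no-extra-copy and 104, 102 and 97.1 CPM in 2-copy libraries. The no-extra-copy libraries lay above the uninduced ones, a rise of 1.15-fold (log2 0.20, SE 0.0522, adjusted p = 0.00869), and the 2-copy libraries overlapped with both. The call was lost with DESeq2 (0.0841), without uninduced replicate 1 (0.0612) and without replicate 2 of the no-extra-copy cells (0.132, range over the alternatives 0.00426 to 0.132). Exons of a gene on the other strand, Gm26735, cover 54.6% of the exonic bases of Sox4, and strand use in counting is not stated in the labels. Gm26735 went the other way, from 17.6 ± 2.80 CPM in uninduced to 9.87 ± 2.25 CPM in no-extra-copy cells (1.80-fold lower, adjusted p = 0.000374), with 19.9 ± 2.70 CPM in 2-copy cells. The sum of both was 113.5 ± 3.90, 119.5 ± 3.95 and 121 ± 4.52 CPM in uninduced, no-extra-copy and 2-copy cells. Of the other SOXC genes, Sox11 was 1.30-fold lower in 2-copy than in uninduced cells (adjusted p = 0.00245), and Sox12 1.13-fold lower in no-extra-copy than in uninduced cells (adjusted p = 0.032).

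Sall2 belongs to the spalt-like zinc-finger family, in which Sall4 is a core factor of ESCs. It was at 45.3, 43.5 and 51.3 CPM in uninduced, 46.4, 43.9 and 54.8 CPM in no-extra-copy and 36.1, 36.9 and 35.1 CPM in 2-copy libraries. The 2-copy libraries were below all others, and the other groups lay over each other. Sall2 was 1.32-fold lower in 2-copy than in no-extra-copy cells (log2 -0.40, SE 0.0849, adjusted p = 0.00104) and 1.29-fold lower than in uninduced cells (log2 -0.37, SE 0.0831, adjusted p = 0.00104). No-extra-copy and uninduced cells differed by 0.03 (log2, 95% interval -0.13 to 0.18). Sall3 gave the same calls, 1.31-fold and 1.37-fold lower in 2-copy than in no-extra-copy and uninduced cells (adjusted p = 0.0188 and 0.00315). Sall1 fell at both steps, from 293 ± 9.40 CPM through 242 ± 2.80 CPM to 202 ± 5.401 CPM (adjusted p = 4.83e-06 and 1.98e-05), and Sall4, at 249, 245 and 241 CPM, passed no test.

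Foxd3 encodes a forkhead factor that acts in the naive-to-primed transition and later in neural crest. It was at 20.4, 23.8 and 19.2 CPM in uninduced, 26.0, 27.2 and 25.0 CPM in no-extra-copy and 15.8, 16.1 and 16.4 CPM in 2-copy libraries, with no overlap among the groups. The largest difference was between the induced populations, 1.63-fold lower in 2-copy cells (log2 -0.71, SE 0.108, adjusted p = 1.52e-05), which held in all 20 alternatives. Against uninduced cells, 2-copy cells were 1.32-fold lower (log2 -0.40, SE 0.109, adjusted p = 0.00619), a call lost with DESeq2 (0.0696) and without uninduced replicate 2 (0.0755, range over the alternatives 0.00190 to 0.0755). No-extra-copy cells were 1.24-fold higher than uninduced cells (log2 0.31, SE 0.0989, adjusted p = 0.0342), and this call was lost in 7 of 20 alternatives, among them DESeq2 (0.232) and the length and GC correction (0.329, log2 0.16), within a range of 0.0169 to 0.366. Without uninduced replicate 1 or 3 and without no-extra-copy replicate 1 or 2 it had 0.130, 0.159, 0.0753 and 0.177. Neural crest markers were scarce beside Foxd3, with 3 of 6 testable and a summed level of 9.85 to 16.0 CPM over all libraries.

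Of 21 close relatives of the members, 12 could be tested. In 2-copy against no-extra-copy cells 6 of them were lower and 0 higher (7 and 0 at an unadjusted p under 0.05 in edgeR, 3 and 0 with DESeq2, 6 and 0 with limma-voom), with a median of -0.17 (log2). Against uninduced cells, 2-copy cells had 5 lower and 2 higher and no-extra-copy cells 3 lower and 4 higher, with medians of -0.11 and -0.02. DESeq2 called 1 lower and 1 higher in no-extra-copy against uninduced cells. The shares of all tested genes in edgeR were 7.7% lower and 8.3% higher in 2-copy against no-extra-copy cells. They were 12.1% and 12.8% in 2-copy against uninduced cells, and 6.39% and 7.1% in no-extra-copy against uninduced cells. Medians over all tested genes were -0.01, -0.01 and 0.0022 (log2) in the same order.

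**Figure D3:**
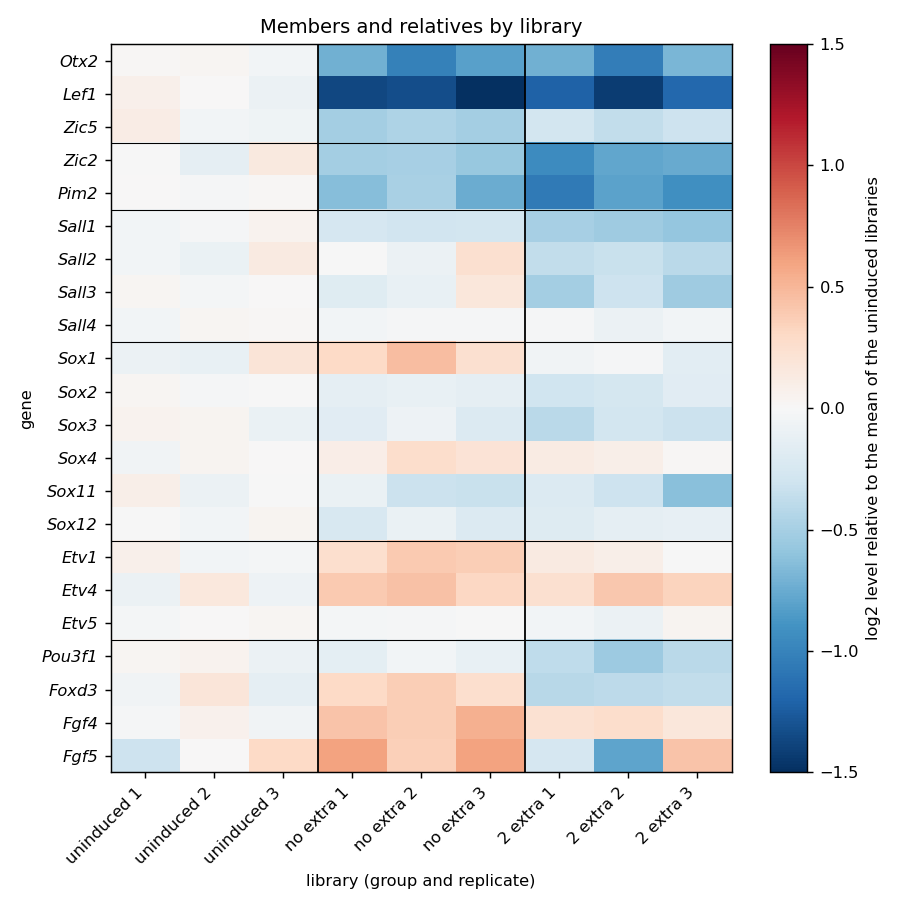
log2 level of members and their relatives in each library (columns, by group and replicate), relative to the mean of the 3 uninduced libraries; rows are genes and the colour scale is in log2 units. Lef1 and Otx2 are blue in all 6 induced libraries, Pou3f1 and Sall2 in the 2-copy libraries, and Etv4 is red in all 6.

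Other genes of the formative and primed programme also had calls in both directions. Of 16 listed, 8 were lower and 3 higher in 2-copy than in uninduced cells (68.75% called, against 25% of all tested genes), with a median of -0.14 (log2). Lef1, a transcription factor of WNT signalling, was 2.40-fold lower (adjusted p = 3.07e-10) and the kinase gene Pim2 1.89-fold lower (adjusted p = 3.87e-11). Tcf15, a bHLH factor linked to priming, was 1.57-fold higher (adjusted p = 1.25e-05) and Nodal 1.173-fold higher (adjusted p = 0.00365). No-extra-copy cells had 6 lower and 3 higher than uninduced cells (56.25%, against 13.5%; median -0.11), with Lef1 2.69-fold lower and Pim2 1.52-fold lower (adjusted p = 2.81e-11 and 4.65e-08), and Tcf15 1.599-fold and N-cadherin, Cdh2, 1.43-fold higher (adjusted p = 9.38e-06 and 0.00254). Between the induced populations 3 were lower in 2-copy cells and 1 higher, with 25% called against 16% and a median of -0.02 (log2): Pim2 (1.25-fold, adjusted p = 0.000857) and Cdh2 (1.54-fold, adjusted p = 0.000572) were among the lower, and the DNA methyltransferase gene Dnmt3b 1.18-fold higher (adjusted p = 1.18e-05). Lef1, like Otx2, was at 10.3 ± 1.54 CPM in no-extra-copy and 11.8 ± 1.04 CPM in 2-copy cells, against 28.6 ± 1.58 CPM in uninduced cells. Of 6 testable WNT target genes, Lef1 among them, it was the only one called in edgeR in either comparison with uninduced cells. That is 16.7% of the list, beside 25% of all tested genes in 2-copy and 13.5% in no-extra-copy cells. At an unadjusted p under 0.05 in edgeR 2 were lower in each comparison, with 0 higher in 2-copy and 1 higher in no-extra-copy cells. The length and GC correction called 2 lower and 0 higher in no-extra-copy against uninduced cells.

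Naive genes, which go down as formative genes go up during exit, did not move opposite to the members throughout. Of 14 listed, 8 were higher in no-extra-copy than in uninduced cells and 1 lower, against 7.1% and 6.39% of all tested genes, with a median of 0.19 (log2), led by Tbx3 and Tfcp2l1, each 1.46-fold higher (adjusted p = 1.99e-05 and 0.000328), and with Dppa3 1.20-fold lower (adjusted p = 0.0222). In 2-copy against no-extra-copy cells 8 were lower and 0 higher (median -0.22), with Nanog 1.19-fold lower (adjusted p = 5.41e-05) and Klf4 1.23-fold lower (adjusted p = 0.000986). At an unadjusted p under 0.05 in edgeR 9 were lower and 0 higher, and DESeq2 and limma-voom called 4 and 8 lower and 0 higher. The 8 of 14 naive genes lower in 2-copy than in no-extra-copy cells stand beside 4 of the 10 members, 3 of the 16 other formative and primed genes and 7.7% of all tested genes. In 2-copy against uninduced cells, 2 naive genes were higher and 2 lower, with a median of -0.04, beside 6 formative members lower and 1 higher. Over all tested genes 12.8% were higher and 12.1% lower. The share of naive genes called, 28.6%, was thus near the 25% of all tested genes. Of 5 core pluripotency genes, 2, 3 and 2 were lower in 2-copy against no-extra-copy, 2-copy against uninduced and no-extra-copy against uninduced cells. Of all tested genes, 7.7%, 12.1% and 6.39% were lower in the same order. DESeq2 called 1, 2 and 1 of the 5 core genes lower.

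Of 12 genes known to drive or gate the exit from the naive state, 6 were lower and 1 higher in 2-copy than in no-extra-copy cells. DESeq2 called 2 lower and 0 higher there. The shares over all tested genes in edgeR were 7.7% lower and 8.3% higher. Rbpj, the nuclear effector of Notch, was 1.16-fold lower (adjusted p = 0.000258), the folate receptor gene Folr1 1.23-fold lower (adjusted p = 0.00214) and Zfp706 1.11-fold higher (adjusted p = 0.0167). Against uninduced cells, 3 were higher and 4 lower in 2-copy cells, beside 12.8% and 12.1% of all tested genes. The higher ones included Zfp706 (1.19-fold, adjusted p = 5.63e-05) and Fgf4 (1.16-fold, adjusted p = 0.00491). Among the lower were the receptor gene Fgfr2 (1.34-fold, adjusted p = 0.00069) and Tcf7l1, a repressor of naive genes (1.13-fold, adjusted p = 0.00324). In no-extra-copy against uninduced cells 3 were higher and 0 lower, beside 7.1% and 6.39% of all tested genes. The median of this list was -0.13, -0.0024 and 0.03 (log2) in 2-copy against no-extra-copy, 2-copy against uninduced and no-extra-copy against uninduced cells.

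**Figure D4:**
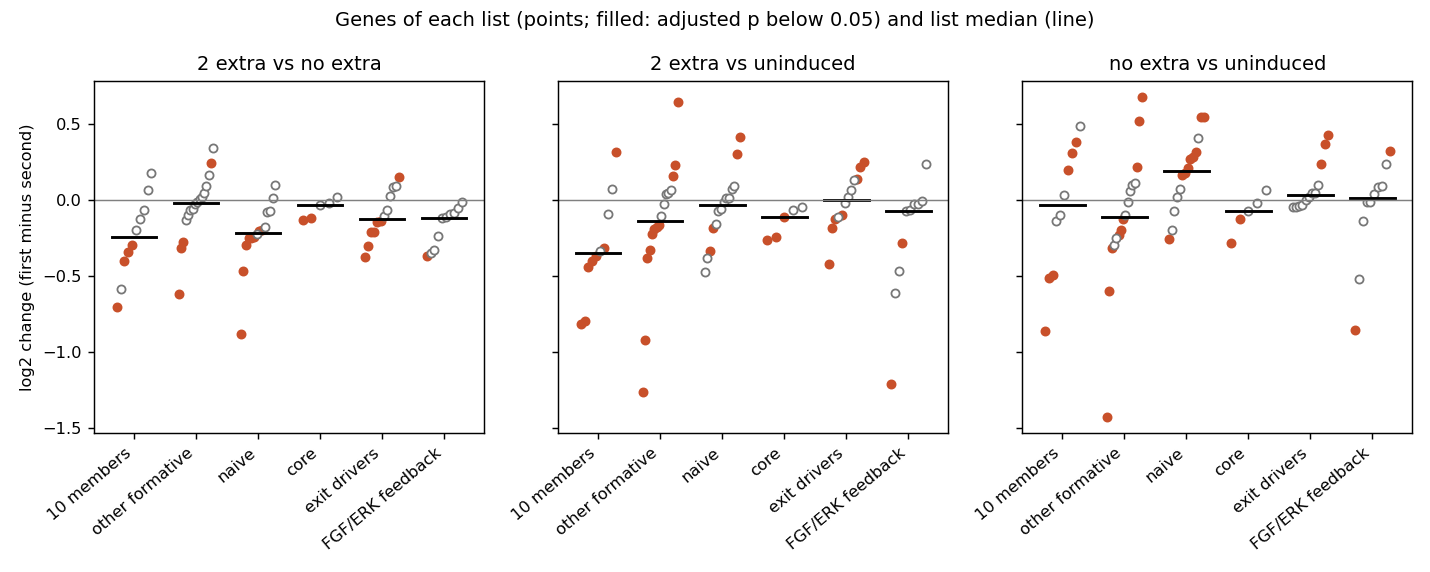
log2 difference (vertical axis) of each tested gene of 6 lists in the 3 comparisons; filled points have an adjusted p below 0.05 and black lines are list medians. In 2-copy against no-extra-copy cells the medians of the members (-0.25) and of the naive genes (-0.22) both lie below 0, while in no-extra-copy against uninduced cells the naive median is 0.19 and that of the members -0.03.

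Markers of other cell types also differed between the groups, and their part in the members' differences was not tested. The summed level of 10 fibroblast markers was 76.9 to 82.8 CPM in uninduced, 193 to 218 CPM in no-extra-copy and 120 to 128 CPM in 2-copy libraries, with 6 of 10 testable and 5, 5 and 4 of them called in no-extra-copy against uninduced, 2-copy against uninduced and 2-copy against no-extra-copy cells. Of all tested genes, 13.5%, 25% and 16% were called in these comparisons. The fibroblast genes Lum, Dcn and S100a4 had group means of 0.44 CPM or less. The markers with most reads in this list included Tagln, at means of 34.5, 83.1 and 53.8 CPM in uninduced, no-extra-copy and 2-copy cells, Acta2 at 18.6, 50.7 and 23.3 CPM and Col1a2 at 9.99, 36.4 and 20.02 CPM. The extraembryonic endoderm sum was 235 to 238, 302 to 346 and 204 to 220 CPM in uninduced, no-extra-copy and 2-copy libraries, with Gata6, Sox17 and Sox7 too scarce to be tested. Of 7 testable endoderm markers, 5 were lower in 2-copy than in no-extra-copy cells, beside 7.7% of all tested genes. In no-extra-copy against uninduced cells 3 were higher, beside 7.1% of all tested genes. Sparc, the matrix protein gene, had means of 113, 175 and 106 CPM. The transcription factor gene Gata4 was scarce and did not rise in no-extra-copy cells, at means of 4.14, 3.87 and 3.14 CPM. The trophectoderm sum was 147 to 161, 214 to 241 and 189 to 205 CPM, with Cdx2, Elf5 and Hand1 too scarce to be tested. Of 4 testable markers, 3 were higher in no-extra-copy and 2 in 2-copy than in uninduced cells, beside 7.1% and 12.8% of all tested genes. DESeq2 called 2 higher in each of these comparisons. Between the induced populations 2 were lower in 2-copy cells, beside 7.7% of all tested genes. The keratin gene Krt8 had means of 23.0, 62.5 and 42.8 CPM. Tfap2c, a transcription factor gene with more reads, had 112, 121 and 122 CPM. It was not called in 2-copy against no-extra-copy or uninduced cells (adjusted p = 0.947 and 0.118). Neuroectoderm markers are of interest here because Sox3 and the Zic genes are also active in neural progenitors. Their sum was 248 to 259, 244 to 259 and 221 to 233 CPM in uninduced, no-extra-copy and 2-copy libraries. Of 8 testable ones, 5 were lower in 2-copy than in no-extra-copy cells, beside 7.7% of all tested genes. Pax6 was 1.75-fold lower there (adjusted p = 0.000634), and DESeq2 called 2 of these markers lower. Primitive streak markers summed to 8.33 CPM or less in every library, and Eomes was the only one testable.

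**Figure D5:**
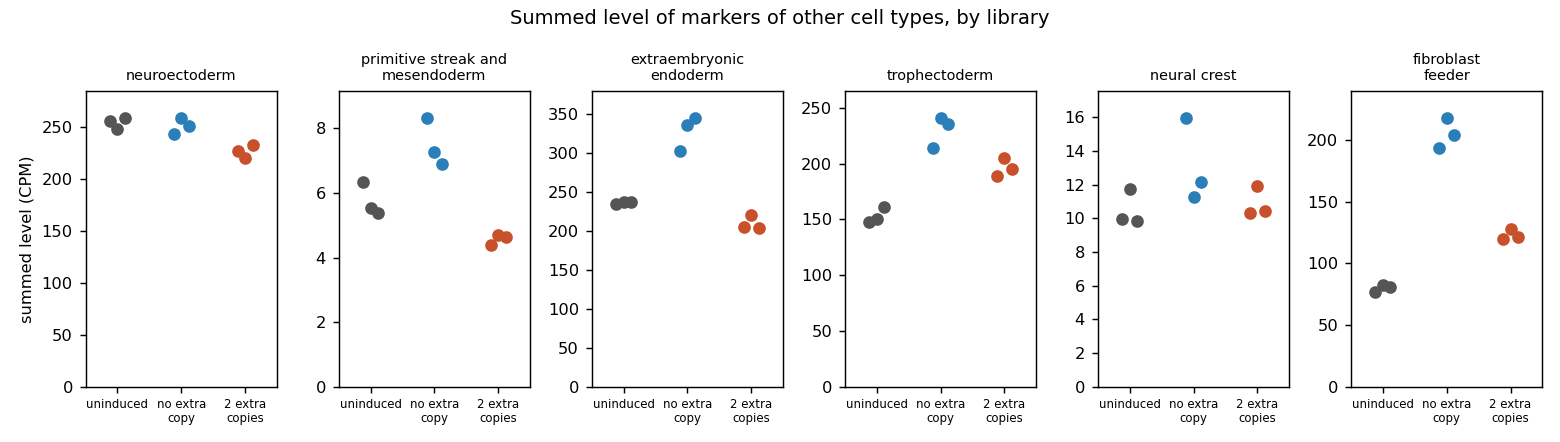
Summed level in CPM (vertical axes, from 0) of the marker lists of 6 other cell types in each library (points), by group. The fibroblast sum is 76.9 to 82.8 CPM in uninduced and 193 to 218 CPM in no-extra-copy libraries, and the primitive streak sum stays at 8.33 CPM or below.

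Across the 9 libraries, which share groups, depth and preparation, the members fell into different company. The log2 levels of Otx2 and Zic5 had a Pearson correlation of 0.90, Pou3f1 and Sox3 of 0.88, and Otx2 and Etv4 of -0.90, while Otx2 and Foxd3 had 0.03. Zic2 and Zic5, despite their neighbourhood, had 0.69, below Zic2 with Sox3 (0.86) and with Otx2 (0.84). Among 9483 other genes at 10 CPM or more on average, those most like a member over these libraries included Cebpg and Ccdc18 for Otx2 (each 0.97) and Tfe3, Trh and Msmo1 for Zic2 (0.99, 0.99 and 0.98). For Zic5 they were Pfkp, Clk4 and Tdrd12 (each 0.98), for Pou3f1 Zgrf1, Sdc2 and Pdpr (0.98, 0.97 and 0.97), and for Foxd3 Platr15, Ndn and Kank1 (0.98, 0.97 and 0.97). Sall2 was most like Optn (0.96), Sox4 most like Elovl1 (0.95) and Etv4 most like Pex5 (0.97). These correlations are descriptions over 9 libraries.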

How the data were processed

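Per the labels, total RNA of sorted mouse ESCs gave single-end 75 bp reads. The authors deposited expected counts per gene from RSEM 1.17 on GRCm38 (annotation release 84), per the submitters' processing notes, which also name cutadapt, Picard and limma; no aligner is named in the sources used here. Expected counts were rounded, filtered by edgeR's filterByExpr (13424 genes, 99.8% of counts) and TMM-scaled. With edgeR 4.0.16 (R 4.3.3), robust quasi-likelihood F-tests over all 9 libraries, with 1 coefficient per group, used Benjamini-Hochberg adjustment; standard errors are the absolute log2 change divided by F's square root. Replicates had a biological coefficient of variation of 0.0394 in common. Names, exon lengths and overlaps came from GENCODE M21 (35432 of 35771 identifiers matched) and copies from minimap2 2.31-r1302 (95% identity over 50%). Scripts were tested on simulated data. The members, lists and groups of markers were chosen with earlier results of these data known. Named were all members, their relatives, up to 2 genes per list and direction with the smallest p, and the 3 genes most like a member. Some genes that this rule names are not reported here. Gm26735, the marker genes with most reads, genes named for being scarce and the matches shown for each member were picked after their values were seen. Alternatives were DESeq2 1.42.0, limma-voom (limma 3.58.1), other scalings, filters and thresholds, the 2 groups compared alone, a replicate block, a length and GC correction (splines of 5 df), and leaving out each library. The depth per library limits scarce genes such as Fgf5.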

Additional observations from a re-analysis of the deposited data

How the results depend on the processing

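Of 126 recomputed member counts, 123 stayed within 1.5 times of the reported count. The exceptions were members higher in no-extra-copy than in uninduced cells, 3 as reported, 1 with DESeq2, and 1 to 3 when a library was left out (1 without uninduced replicate 1 and 1 without no-extra-copy replicate 2; Etv4 was the gene called each time). With each library left out in turn, the members lower in 2-copy cells numbered 3 to 5 against no-extra-copy and 5 to 6 against uninduced cells. Of 600 recomputed single-gene differences, 571 kept their direction and side of the threshold, 17 lost the call, 6 gained one and 6 changed sign. Each change of sign was in a difference that was not called. They were Otx2 in 2-copy against no-extra-copy cells without no-extra-copy replicate 2 (log2 -0.037, range with 1 library left out -0.037 to 0.17), Fgf5 in 2-copy against uninduced cells without uninduced replicate 3 (0.05) or 2-copy replicate 2 (0.14, range -0.50 to 0.14), and Sall2 in no-extra-copy against uninduced cells with the length and GC correction (-0.00024), without uninduced replicate 2 (-0.02) or without no-extra-copy replicate 3 (-0.049, range -0.049 to 0.11). Library size alone added a call for Sox4 in 2-copy against no-extra-copy cells (adjusted p = 0.0342), as did leaving out no-extra-copy replicate 1 (0.0497; range over the alternatives 0.0342 to 0.477). The cause of these changes was not tested.

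Same-numbered libraries of different groups had deviations correlated at -0.08 to 0.08, and a library's best match had its own number in 3 of 18 cases, so the numbers were not taken as a pairing. With the replicate block the members higher and lower were 0 and 4, 1 and 6, and 3 and 3, as without it, in 2-copy against no-extra-copy, 2-copy against uninduced and no-extra-copy against uninduced cells; it changed no member's call. Over all tested genes the block called 1177 and 1056, 1765 and 1675, and 1012 and 921. DESeq2 called fewer genes overall than edgeR, with 643 higher and 418 lower, 1088 and 801, and 399 and 407 in the same order. Without no-extra-copy replicate 2 the calls were 750 and 647 in 2-copy against no-extra-copy and 622 and 555 in no-extra-copy against uninduced cells. Under library size alone the split of higher and lower calls over all genes was 774 and 1360, 1494 and 1848, and 1105 and 742, in place of 1114 and 1034, 1721 and 1629, and 953 and 858. Depth limits Fgf5 most, with 206 counts over 9 libraries.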
